A study of Mus musculus with 12 samples.

Results

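Toll-like receptors are the sensors through which myeloid cells and their precursors recognise microbial products, and the open chromatin around 9 genes of that system is described here in mice that lack the upstream regulatory element (URE) of Spi1, the gene of the transcription factor PU.1. The genes were Tlr4 and its partners Ly96 and Cd14, the related pair Cd180 and Ly86, the cell surface receptors Tlr2, Tlr1 and Tlr6, and the endosomal receptor Tlr9. Every accessible region of the count table that overlapped the body of one of these genes, extended by 20 kb on each side, was taken, which gave 67 of 121336 regions. Tlr4 had 4 regions, Ly96 1, Cd14 9, Ly86 17, Cd180 10, Tlr2 3, Tlr1 5, Tlr6 7 and Tlr9 13, and 2 regions lay in reach of both Tlr1 and Tlr6. Of the 67 regions, 15 lay at a promoter, 24 in an intron, 24 between genes, 3 in a coding exon and 1 in the non-coding part of an exon, and for 47 of them the nearest start site was that of one of the 9 genes. Regions are named here by the gene and by the distance in bp of their midpoint from the start of the gene, with a minus sign for upstream.

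Chromatin accessibility was measured by ATAC-seq in cells sorted from the femoral bone marrow of UREd/d mice, called URE, in which both copies of the element are deleted, and of WT littermates on a C57BL/6 background, all aged 8 to 12 weeks. LSKs are the Lin-, Sca-1+, c-Kit+ population that holds haematopoietic stem and early progenitor cells, and GMPs are the c-Kit+, Sca-1- precursors of granulocytes and monocytes that carry Fc gamma receptors. Both populations were sorted from WT and from URE mice, which gave 4 groups (WT-LSK, WT-GMP, URE-LSK, URE-GMP) with 3 libraries each, which according to the methods came from separate mice, and the URE mice were at a preleukemic stage. The deletion is carried in every cell of the animal, so neither population was exposed to a short-term loss of the element.

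Toll-like receptors dimerise on binding their ligand and signal through adaptors such as Myd88 to NF-kB and interferon regulatory factors. Tlr4 recognises bacterial lipopolysaccharide when it is bound to Ly96 (MD-2), and Cd14 hands the lipid over to that complex. Cd180 (RP105) is a Tlr4 relative without a signalling domain that is held at the surface by Ly86 (MD-1), itself a relative of Ly96. Tlr2 pairs with Tlr1 or Tlr6 to bind bacterial lipopeptides, and Tlr9 recognises unmethylated CpG DNA in endosomes. PU.1 binds purine-rich GGAA sites and is known as a regulator of myeloid genes, including receptors of this family.

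The libraries held between 23072701 and 62204826 counts in regions. At the deleted element, the region chr2:91082790-91083700 had between 36.0 and 46.2 CPM (the count scaled to the library's effective total) in the WT libraries and at most 6 counts in any URE library. Promoters of 5 GMP genes of a list of 6, such as Mpo and Elane, summed to between 24.5 and 28.5 CPM in WT-LSK and between 181 and 226 CPM in WT-GMP, and those of 5 LSK genes of a list of 6 to between 234 and 243 and between 194 and 221 CPM, while Ly6a, which encodes Sca-1, had no promoter region. In URE the GMP genes summed to between 21.9 and 45.5 CPM in LSKs and between 291 and 305 in GMPs, and the LSK genes to between 263 and 289 and between 230.2 and 236. Promoters of 5 monocyte and macrophage genes of a list of 6 summed to between 35.01 and 42.1 CPM in WT-LSK and, lower, to between 11.6 and 15.8 in URE-LSK, and in GMPs to between 61.7 and 68.8 with WT and 40.3 and 45.2 with URE genotype. Promoters of 2 mast cell and basophil genes of a list of 4 summed to between 7.38 and 13.1 CPM in the WT libraries and between 23.8 and 34.5 CPM in the URE libraries. The lists of B cell, T cell and erythroid genes each had a promoter region for 1 gene only, with group means between 5.22 and 13.7 CPM. The erythroid promoter had between 6.17 and 9.20 CPM in WT-GMPs and, lower, between 5.04 and 5.45 in URE-GMPs. The monocyte, the mast cell and the LSK sums thus moved with genotype in both cell types, and the GMP sum and the erythroid promoter in GMPs. The LSK sums rose beside a median log2 fold change over all promoter regions of 0.22 in LSKs and 0.16 in GMPs. Within the GMP list, the log2 fold changes in GMPs were 0.44 for Mpo and 0.78 for Elane but -0.49 for Ms4a3. Many of the regions described here moved with genotype too, and the part of these markers in those differences was not tested. In sorted bulk populations, fewer cells with an open region and less opening per cell cannot be told apart.

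Of the 67 regions, 9 (13.4%) held the letters GAGGAAGT, a strong form of the PU.1 site, on either strand, compared with 10.5% of all regions. Those 9 sites are shown because PU.1 is the product of the gene whose element was deleted, oriented so that the site reads forward, with the site in capitals (GRCm38). Windows were cut to 10 bases on each side where they reached an untranslated exon part, and otherwise hold 26 bases on each side.
Tlr9 -134, chr9:106222598-106222625, minus strand: tcagagaattGAGGAAGTgacactttca
Ly86 +11523, chr13:37356700-37356759, minus strand: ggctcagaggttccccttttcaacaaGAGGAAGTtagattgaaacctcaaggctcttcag
Cd180 -3659, chr13:102689670-102689729, plus strand: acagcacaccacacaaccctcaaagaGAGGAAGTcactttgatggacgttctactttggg
Tlr6 -1193, chr5:64960949-64961008, plus strand: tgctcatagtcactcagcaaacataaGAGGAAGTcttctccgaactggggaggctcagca
Tlr1 -61, chr5:64933564-64933591, minus strand: ttaaatgttgGAGGAAGTaggagcttga
Tlr4 +209, chr4:66827683-66827710, minus strand: tatattcaaaGAGGAAGTgagagtgcca
Tlr4 +24614, chr4:66852064-66852123, plus strand: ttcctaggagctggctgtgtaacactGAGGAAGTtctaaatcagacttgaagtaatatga
Ly86 +89133, chr13:37434472-37434531, minus strand: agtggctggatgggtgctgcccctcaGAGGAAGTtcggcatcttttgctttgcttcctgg
Cd180 -14722, chr13:102678972-102679031, minus strand: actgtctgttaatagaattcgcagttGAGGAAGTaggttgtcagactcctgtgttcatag

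The regions of the Tlr9, Ly86 and Cd180 sites at the top of this series were less accessible in URE cells of both types, that of the Tlr6 site in LSKs and that of the Tlr1 site in GMPs. The remaining 4, Tlr4 +209, Tlr4 +24614, Ly86 +89133 and Cd180 -14722, were not called in either cell type, with log2 fold changes between -0.96 and 0.26. So 4 of the 9 regions with the site were lower in each cell type, against 23 of the 58 regions without it. Of all 12706 regions with the site, 51.9% were lower in LSKs and 47.2% in GMPs.

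Accessibility at these loci fell in URE mice more often than it rose. A region was called when edgeR's quasi-likelihood test gave p under 0.05 after adjustment over the 121336 regions and the absolute log2 fold change exceeded 1. In LSKs 33 of the 67 regions were called, 27 of them lower and 6 higher in URE, so that 49.3% of the regions around the 9 genes were called against 37.5% of all regions. Of the 67, 40.3% were lower against 23.9% of all regions and 8.96% higher against 13.6%. In GMPs 31 regions were called, 27 lower and 4 higher, which is 46.3% against 39.7% of all regions, with 40.3% lower against 24.1% and 5.97% higher against 15.6%. With offsets fitted to abundance, the LSK calls split into 24 lower and 9 higher and the GMP calls into 24 lower and 8 higher. The 6 higher regions in LSKs became 3 without WT-LSK replicate 3 or URE-LSK replicate 3. The median log2 fold change over the 67 regions was -0.22 in LSKs and -0.64 in GMPs, beside 0.14 and 0.06 over all regions.

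The same regions were lower in both cell types in 22 cases, or 32.8% of the 67, while 18.7% of all regions behaved so. The LSK and GMP calls share no library, though all 12 libraries entered one fit. Same-numbered LSK and GMP libraries of a genotype deviated together, however, with correlations between 0.112 and 0.319, so the calls cannot be taken as independent. A further 5 regions were lower only by the LSK call and 5 only by the GMP call, 3 were higher in both (8.45% of all regions were), 3 were higher by the LSK call alone, 1 by the GMP call alone, 28 were called in neither, and no region was called in opposite directions. The 3 URE libraries lay wholly outside the range of the 3 WT libraries in 45 regions in LSKs and in 46 in GMPs, that is 67.2% and 68.7%, close to the 66.7% and 65.4% among all regions.

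**Figure D1:**
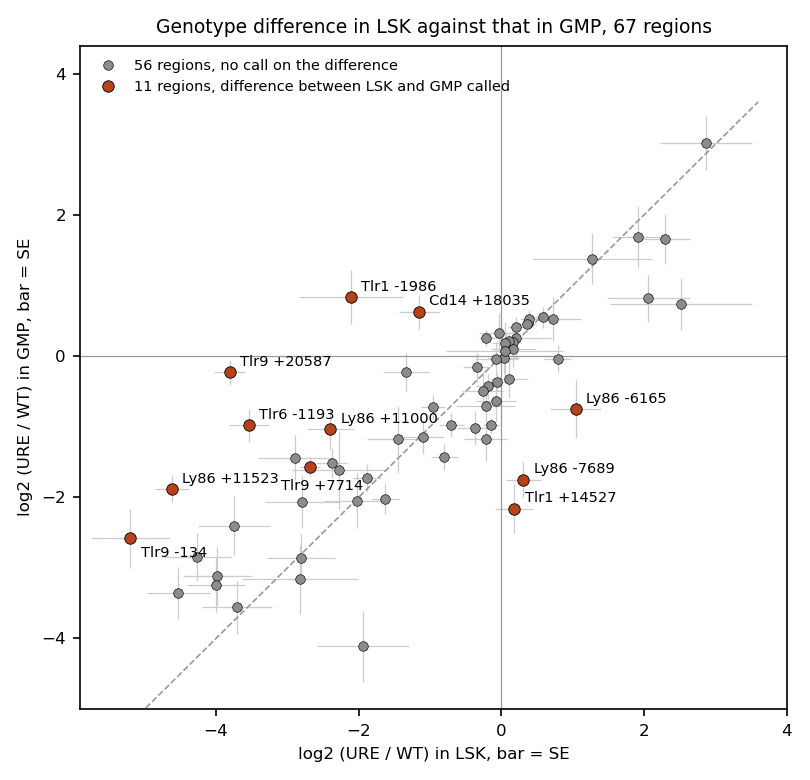
Log2 fold change of URE over WT in LSKs (horizontal axis) and in GMPs (vertical axis) for the 67 regions around the 9 genes, with standard errors as bars and the line of equal change dashed. Most points lie in the lower left quadrant, and the 11 regions in colour are those in which the change differed between the cell types.

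At the promoters, 4 of the 15 regions were lower in LSKs and 6 in GMPs, where 11.5% and 13.0% of all 19118 promoter regions were called in either direction. These promoter regions include those of neighbouring genes within the windows, which were not called. They also include a further region of Tlr9, Tlr9 +607, which was lower in both cell types and is described below. Among the promoters of the 9 genes themselves, Tlr9, Ly86 and Cd180 were lower in both cell types, Cd14 and Tlr1 were lower in GMPs, and Tlr4, Ly96, Tlr2 and Tlr6 passed neither call.

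**Figure D2:**
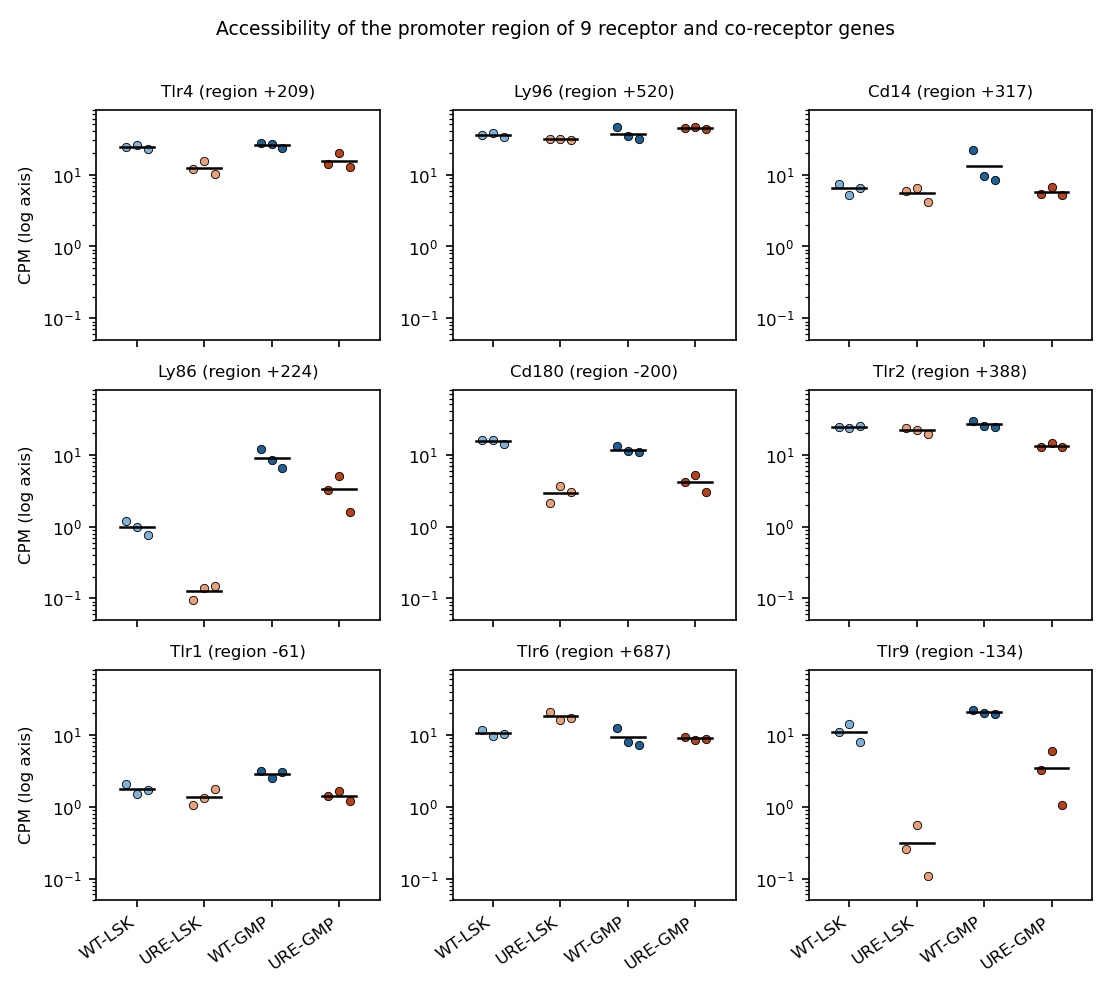
CPM of the promoter region of each of the 9 genes in the 12 libraries, on a log axis, with the mean of 3 libraries as a line. The Tlr9, Ly86 and Cd180 promoters were lower in all URE libraries than in the WT libraries of the same cell type, and the Ly96 promoter stayed between 31.1 and 44.5 CPM on average in the 4 groups.

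At the genes of the lipopolysaccharide receptor, the largest decreases of Tlr4 and Cd14 lay outside their promoter regions, while Ly96 had a promoter region only. At the Tlr4 promoter (chr4:66827356-66828230) WT-LSKs had 24.1, 26.03 and 22.7 CPM and URE-LSKs 12.04, 15.2 and 10.2, and the WT-GMPs had 27.3, 26.8 and 23.5 against 14.1, 20.2 and 12.8 in URE-GMPs. Every URE library was below every WT library of its cell type, with log2 fold changes of -0.96 (SE 0.17, adjusted p = 0.000143) and -0.72 (SE 0.17, adjusted p = 0.00146), so the difference passed the edgeR test but not the fold limit. The LSK value lay so near the limit that it was called without any 1 of 6 libraries (WT-LSK replicates 1 and 3, URE-LSK replicate 2 and each WT-GMP library), at log2 fold changes between -1.13 and -1.02, and under 3 other scalings, at values down to -1.14.

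Within the Tlr4 gene, an intronic region 15.9 kb from the start (chr4:66843308-66843598) was lower in both cell types. It had 1.496, 2.57 and 1.27 CPM in WT-LSKs and 0.381, 0.391 and 0.491 in URE-LSKs, then 5.02, 6.02 and 5.25 in WT-GMPs and 0.861, 2.43 and 0.557 in URE-GMPs. No URE library reached the WT range, with log2 fold changes of -2.03 (SE 0.46, adjusted p = 0.00145) and -2.05 (SE 0.39, adjusted p = 0.000308) by edgeR, and without URE-GMP replicate 2, the highest of its group, the GMP value was -2.93. By contrast the intronic region Tlr4 +24614, which holds one of the PU.1 sites shown above, was opened on the way to the GMP whatever the genotype. It rose from 0.184, 0.245 and 0.362 CPM in WT-LSKs to 8.74, 8.39 and 4.36 in WT-GMPs and from 0.119, 0.447 and 0.385 to 8.697, 10.1 and 6.76 in URE cells, log2 fold changes of 4.70 (SE 0.39, adjusted p = 2.33e-07) and 4.75 (SE 0.38, adjusted p = 3.63e-08). The WT and URE libraries of a cell type overlapped there, with genotype log2 fold changes of 0.20 (SE 0.50) in LSKs and 0.26 (SE 0.29) in GMPs.

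Ly96, the lipid-binding partner of Tlr4, had a single region, at its promoter (chr1:16688048-16689095). WT-LSKs had 35.9, 38.4 and 33.9 CPM there, URE-LSKs 31.6, 30.9 and 30.6, WT-GMPs 45.8, 34.01 and 31.6 and URE-GMPs 44.3, 45.4 and 43.7. The URE-LSKs lay below the WT-LSKs and the URE-GMPs within the WT-GMP range, and the log2 fold changes, -0.21 (SE 0.11, adjusted p = 0.116) and 0.26 (SE 0.11, adjusted p = 0.0503) by edgeR, passed neither the test nor the fold limit.

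Around Cd14, the co-receptor for lipopolysaccharide, the largest relative losses were found at a weak region just upstream of the gene. This region (chr18:36727723-36727954) had 0.577, 0.5303 and 0.623 CPM in WT-LSKs and 0.119, 0.0837 and 0.0427 in URE-LSKs, and 4.22, 2.896 and 2.42 CPM in WT-GMPs against 0.301, 0.607 and 0.363 in URE-GMPs. The groups did not overlap in either cell type, and edgeR gave log2 fold changes of -2.81 (SE 0.48, adjusted p = 0.00011) and -2.86 (SE 0.34, adjusted p = 3.43e-06), which fell to -1.30 and -1.42 with offsets fitted to abundance. The Cd14 promoter itself (chr18:36726082-36726880) had 7.48, 5.26 and 6.54 CPM in WT-LSKs and 5.97, 6.48 and 4.21 in URE-LSKs, with overlapping libraries and a log2 fold change of -0.22 (SE 0.30, adjusted p = 0.544). In GMPs it was lower in URE at 5.45, 6.77 and 5.14 CPM against 21.8, 9.63 and 8.37, a log2 fold change of -1.18 (SE 0.30, adjusted p = 0.0026). That call rested on WT-GMP replicate 1, without which the value was -0.68 (edgeR, adjusted p = 0.0104).

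The region with the most counts in the Cd14 window belonged to another gene, the Tmco6 promoter, at 40.9 ± 1.78 CPM in WT-LSKs and 44.1 ± 3.46 in URE-LSKs (SD, n = 3), and was not called in either cell type. Beyond the 3' end of Cd14, the region at +18035 (chr18:36708216-36709310), nearest to E230025N22Rik, changed in opposite directions by mean, as described with the other regions of that kind below.

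The Cd180 locus lost accessibility along most of its length. Of its 10 regions, 7 were lower in URE-LSKs and 7 in URE-GMPs, or 70.0% in each, beside 23.9% and 24.1% of all regions. The gene's summed accessibility was 63.8 ± 2.48 CPM (SD, n = 3) in WT-LSKs, 25.1 ± 2.92 in URE-LSKs, 79.1 ± 11.4 in WT-GMPs and 26.2 ± 5.45 in URE-GMPs. At the promoter (chr13:102693042-102693674) WT-LSKs had 15.9, 16.1 and 13.96 CPM and URE-LSKs 2.12, 3.69 and 3.05, and WT-GMPs 13.2, 11.3 and 10.9 against 4.13, 5.17 and 3.05. These are clear separations in both cell types, with log2 fold changes of -2.38 (SE 0.22, adjusted p = 1.93e-07) and -1.51 (SE 0.21, adjusted p = 1.65e-05) by edgeR.

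An intron of this gene held a region at +1926 (chr13:102695137-102695832) that nearly closed in URE-LSKs. It had 7.98, 8.73 and 7.903 CPM in WT-LSKs, 0.381, 0.335 and 0.342 in URE-LSKs, 24.98, 21.3 and 17.98 in WT-GMPs and 1.59, 3.78 and 0.727 in URE-GMPs. The groups were far apart, with log2 fold changes of -4.53 (SE 0.44, adjusted p = 3.85e-07) and -3.36 (SE 0.37, adjusted p = 1.64e-06) by edgeR. The central 300 bases of this region are shown as those of the largest LSK decrease at the locus, with the PU.1 core letters GAGGAA in capitals (GRCm38).
Cd180 +1926, chr13:102695334-102695633, plus strand: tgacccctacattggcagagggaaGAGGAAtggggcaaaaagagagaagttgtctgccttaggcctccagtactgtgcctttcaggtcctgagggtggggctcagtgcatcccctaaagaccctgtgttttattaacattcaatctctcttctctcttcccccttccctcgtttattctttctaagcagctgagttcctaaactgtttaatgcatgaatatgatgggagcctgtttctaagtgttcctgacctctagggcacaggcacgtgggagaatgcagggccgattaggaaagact

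Upstream of Cd180 lay the region with the most counts over all libraries, though not the highest mean in any group (chr13:102689498-102690300), with the PU.1 site shown above. Its values were 14.8, 15.5 and 12.6 CPM in WT-LSKs and 0.833, 1.03 and 0.812 in URE-LSKs, and 25.5, 15.4 and 15.8 in WT-GMPs and 1.94, 3.296 and 0.606 in URE-GMPs. No URE library came near a WT library, and edgeR gave log2 fold changes of -4.00 (SE 0.41, adjusted p = 5.91e-07) and -3.24 (SE 0.38, adjusted p = 2.81e-06). The weaker regions Cd180 -5324, +6813 and +23613 were also lower, with log2 fold changes in LSKs of -2.79, -1.63 and -3.70 and in GMPs of -2.06, -2.02 and -3.56 (adjusted p by edgeR between 1.08e-06 and 0.000259). With offsets fitted to abundance, the values of Cd180 -5324 and +23613 came to -1.67 and -2.23 in LSKs and -1.14 and -1.99 in GMPs. URE-GMP replicate 2 was the highest of its group at -3659, +1926 and -5324, and without it the GMP log2 fold changes were -3.87 at -3659, -4.19 at +1926 and -2.70 at -5324.

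Other Cd180 regions did not follow. The intronic region +5265 had 6.59, 5.79 and 6.54 CPM in WT-LSKs and 8.19, 10.4 and 10.04 in URE-LSKs, a log2 fold change of 0.59 (SE 0.16, adjusted p = 0.00391) and thus above WT in each library but short of the fold limit. The upstream region Cd180 -14722, again with a PU.1 site, had 10.6 ± 1.21 CPM in WT-LSKs, 8.43 ± 0.607 in URE-LSKs, 4.21 ± 1.38 in WT-GMPs and 3.801 ± 0.149 in URE-GMPs (SD, n = 3). It was not called between genotypes, with log2 fold changes of -0.34 and -0.16, and was lower in GMPs than in LSKs in both, at -1.32 (SE 0.20, adjusted p = 5.26e-05) in WT and -1.15 (SE 0.20, adjusted p = 0.000103) in URE.

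Ly86, which carries Cd180 to the cell surface, had the most regions, with calls in both directions. In URE-LSKs 7 regions were lower and 3 higher, or 41.2% and 17.6% beside 23.9% and 13.6% of all regions. In URE-GMPs 9 were lower and 2 higher, or 52.9% and 11.8% beside 24.1% and 15.6%. The shares that were higher were thus near those of all regions. Its promoter (chr13:37345163-37345702) was opened late, at 1.18, 0.979 and 0.764 CPM in WT-LSKs and 12.1, 8.54 and 6.57 in WT-GMPs. URE-LSKs had 0.0952, 0.1396 and 0.149 CPM and URE-GMPs 3.23, 5.05 and 1.57. The URE libraries were below the WT libraries in both cell types, at log2 fold changes of -2.89 (SE 0.52, adjusted p = 0.000197) and -1.44 (SE 0.32, adjusted p = 0.00111), while the rise from LSK to GMP was kept, at 3.22 (SE 0.37, adjusted p = 3.14e-06) in WT and 4.66 (SE 0.47, adjusted p = 3.47e-07) in URE.

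A cluster of intronic Ly86 regions, between 10.6 and 11.5 kb from the start, held the 2 largest LSK decreases of the gene. At +11523 (chr13:37356579-37356883), which holds a PU.1 site, WT-LSKs had 8.896, 9.14 and 8.95 CPM and URE-LSKs 0.285, 0.447 and 0.363. In WT-GMPs the same region had 10.7, 8.94 and 8.92 CPM and in URE-GMPs 2.41, 3.19 and 2.08. It was therefore lower in all URE libraries of either type, with log2 fold changes of -4.62 (SE 0.24, adjusted p = 1.81e-09) and -1.88 (SE 0.19, adjusted p = 8.03e-07) by edgeR. Its neighbour at +10612 fell from 3.46, 2.86 and 4.34 CPM in WT-LSKs to 0.1903, 0.251 and 0.235 in URE-LSKs and from 6.86, 5.75 and 5.32 in WT-GMPs to 0.388, 1.35 and 0.242 in URE-GMPs. This was a log2 fold change of -3.98 (SE 0.48, adjusted p = 3.28e-06) in LSKs and of -3.11 (SE 0.41, adjusted p = 8.72e-06) in GMPs. The GMP value was -4.22 without URE-GMP replicate 2. The intronic region +2978 was lower by similar amounts in both cell types, at -1.88 in LSKs and -1.73 in GMPs (edgeR, adjusted p = 8.62e-07 and 2.46e-06).

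Upstream of Ly86, a pair of weak regions at -14041 and -12354, both nearest to Gm47711, had a higher mean in WT-GMPs than in any other group. Region -14041 had 3.31, 6.29 and 3.48 CPM in WT-GMPs and 0.0861, 0.503 and 0.121 in URE-GMPs, and -12354 had 6.65, 5.27 and 2.67 against 0.366, 1.04 and 0.145. In GMPs the log2 fold change came to -4.11 (SE 0.50, adjusted p = 4.24e-06) for the former and to -3.16 (SE 0.49, adjusted p = 4.4e-05) for the latter by edgeR. Without URE-GMP replicate 2 these were -5.37 and -4.20, and with offsets fitted to abundance -2.57 and -1.68. From LSK to GMP, -14041 rose by 3.31 (SE 0.48, adjusted p = 2.86e-05) in WT and had 1.14 (SE 0.68, adjusted p = 0.149) in URE, while -12354 rose in both, by 3.53 (SE 0.52, adjusted p = 3.44e-05) and 3.19 (SE 0.76, adjusted p = 0.00153). In LSKs both were near the counting limit. Region -14041 had at most 0.421 CPM as a group mean. Its LSK log2 fold change of -1.94 (SE 0.65, adjusted p = 0.0189) was not called without WT-LSK replicate 3 (-1.66, adjusted p = 0.0867), URE-LSK replicate 2 (-1.67) or replicate 3 (-1.76). Region -12354 had no more than 3 counts in any URE-LSK library, which makes it at least 5.71-fold lower there, taking 3 counts per library as the floor. Neither region was called in LSKs with offsets fitted to abundance, which gave -0.43 (edgeR, adjusted p = 0.575) at -14041 and -1.34 (adjusted p = 0.159) at -12354.

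The 2 Ly86 regions that were higher in URE cells of both types lay far inside the gene, with Gm4035 as the nearest start site. At +54339 (chr13:37399288-37399806) WT-LSKs had 0.0787, 0.0816 and 0.181 CPM and URE-LSKs 0.738, 0.419 and 1.54, and WT-GMPs had 3.93, 4.49 and 1.27 against 24.5, 26.2 and 27.5 in URE-GMPs. All URE libraries were above the WT libraries, with log2 fold changes of 2.87 (SE 0.64, adjusted p = 0.00125) and 3.02 (SE 0.38, adjusted p = 6.88e-06) by edgeR. This was the largest GMP increase at the 9 loci. The LSK value was 2.22 without URE-LSK replicate 3. The region +58678 also rose, from 0.682, 0.775 and 0.744 CPM in WT-LSKs to 3.45, 2.23 and 2.65 in URE-LSKs and from 0.377, 0.0839 and 0.392 in WT-GMPs to 0.8395, 0.642 and 1.16 in URE-GMPs, at log2 fold changes of 1.92 (SE 0.37, adjusted p = 0.000321) and 1.69 (SE 0.43, adjusted p = 0.00309), which were 3.13 and 2.68 with offsets fitted to abundance. Unlike +54339 it was weaker in GMPs than in LSKs of both genotypes, by edgeR log2 fold changes of -1.43 in WT and -1.67 in URE. The central 300 bases of +54339 are printed as those of a gained region, with a C/EBP motif (TTGCNNAA) in capitals and with neither the PU.1 site nor its core.
Ly86 +54339, chr13:37399397-37399696, plus strand: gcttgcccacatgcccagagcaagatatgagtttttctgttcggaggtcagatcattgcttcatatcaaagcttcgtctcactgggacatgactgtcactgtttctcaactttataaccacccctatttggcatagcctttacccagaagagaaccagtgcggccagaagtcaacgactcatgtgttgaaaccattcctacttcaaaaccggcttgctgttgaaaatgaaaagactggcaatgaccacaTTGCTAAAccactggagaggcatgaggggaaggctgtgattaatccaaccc

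The Ly86 region with the most counts over all libraries, +89133, also nearest to Gm4035 and with a PU.1 site, was not called, at 12 ± 1.11 CPM in WT-LSKs, 11.5 ± 0.785 in URE-LSKs, 16.02 ± 1.64 in WT-GMPs and 12.3 ± 1.37 in URE-GMPs (SD, n = 3). Its GMP log2 fold change of -0.37 (SE 0.13, adjusted p = 0.0229) passed the test but not the fold limit.

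**Figure D3:**
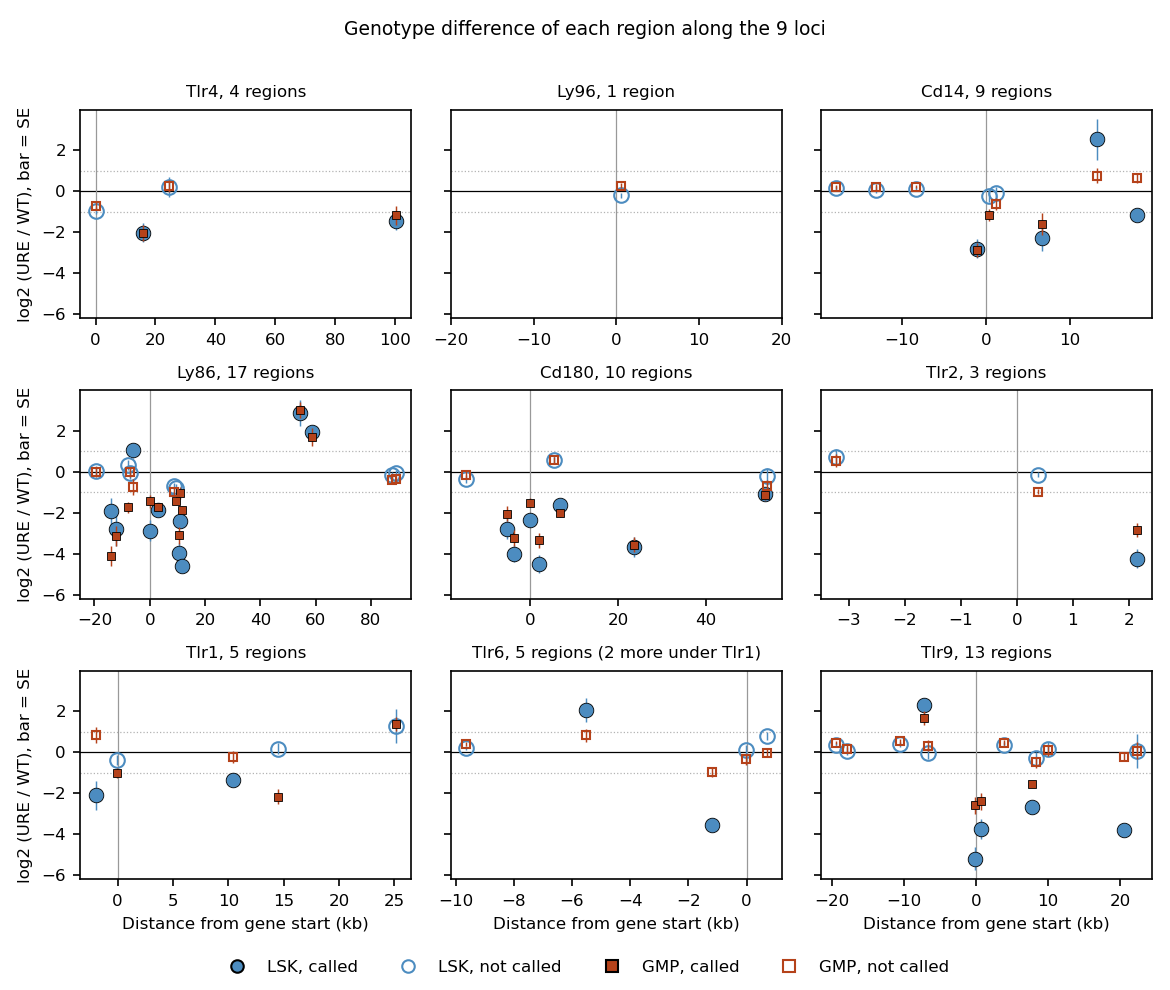
Log2 fold change of URE over WT for each region (circles for LSKs, squares for GMPs, filled where called, with standard errors as bars) against its distance from the gene start in kb. Called losses include the regions near the start of Cd180 and Tlr9 and in introns of Ly86 and Tlr2, and the regions higher in both cell types are Ly86 +54339 and +58678 and Tlr9 -7224.

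Tlr2, the common partner in lipopeptide recognition, had larger differences in an intron than at its promoter. The intronic region Tlr2 +2145 (chr3:83839386-83839858) had 2.44, 4.32 and 2.85 CPM in WT-LSKs, 0.0952, 0.307 and 0.107 in URE-LSKs, 13.8, 15.2 and 10.8 in WT-GMPs and 1.79, 2.76 and 0.872 in URE-GMPs. All URE libraries were below all WT libraries of the same type, with log2 fold changes of -4.26 (SE 0.47, adjusted p = 1.34e-06) and -2.85 (SE 0.34, adjusted p = 4.06e-06) by edgeR, and the LSK value was -4.93 without URE-LSK replicate 2. The difference between these values was not called (1.41, adjusted p = 0.125), but it was once the replicate number entered as a block (1.34, adjusted p = 0.0456).

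At the Tlr2 promoter (chr3:83840905-83841854) the libraries read 24.01, 23.5 and 24.8 CPM in WT-LSKs and 23.8, 22.3 and 19.6 in URE-LSKs, a log2 fold change of -0.14 (SE 0.11, adjusted p = 0.293). In GMPs they read 29.8, 24.9 and 24.4 CPM in WT and 12.8, 14.4 and 12.7 in URE. Thus the promoter overlapped in LSKs and was separated in GMPs, where the log2 fold change of -0.98 (SE 0.11, adjusted p = 2.29e-06) just missed the fold limit. It passed that limit under 4 other scalings and in 2 more settings, at values between -1.13 and -1.05, and without WT-GMP replicate 2 (-1.01), WT-GMP replicate 3 (-1.02) or URE-GMP replicate 2 (-1.04). The difference between the cell types was -0.84 (SE 0.16, adjusted p = 0.00184). A weak region upstream, Tlr2 -3218, rose with the step to GMP in both genotypes, at 2.56 (SE 0.37, adjusted p = 2.86e-05) in WT and 2.37 (SE 0.34, adjusted p = 1.19e-05) in URE, and its genotype log2 fold changes were 0.72 and 0.53, neither past the test, though the LSK value was called with offsets fitted to abundance (1.14, edgeR, adjusted p = 0.0197). The central 300 bases of Tlr2 +2145 hold the PU.1 core and a RUNX motif (AACCACA) on each strand, in capitals.
Tlr2 +2145, chr3:83839472-83839771, plus strand: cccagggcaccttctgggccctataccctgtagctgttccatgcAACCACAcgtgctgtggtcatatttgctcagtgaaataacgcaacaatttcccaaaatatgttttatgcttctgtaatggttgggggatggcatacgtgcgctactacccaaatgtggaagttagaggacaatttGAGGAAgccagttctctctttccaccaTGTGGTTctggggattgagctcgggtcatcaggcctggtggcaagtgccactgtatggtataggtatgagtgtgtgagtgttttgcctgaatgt

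Tlr1 and Tlr6, the alternative partners of Tlr2, lie next to each other. The Tlr1 promoter (chr5:64933500-64933748) was weak, with 2.099, 1.51 and 1.71 CPM in WT-LSKs, 1.05, 1.31 and 1.75 in URE-LSKs, 3.14, 2.52 and 3.02 in WT-GMPs and 1.399, 1.63 and 1.21 in URE-GMPs. The LSK libraries overlapped, with a log2 fold change of -0.37 (SE 0.25, adjusted p = 0.209), and the GMP libraries did not, with -1.02 (SE 0.24, adjusted p = 0.0017). That GMP call was lost without WT-GMP replicate 3 (-0.97) or URE-GMP replicate 3 (-0.92) and under several scalings, where the value came to between -0.96 and -0.72.

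Beyond the 3' end of Tlr1, the region +10453 had the most counts over all libraries and was lower in URE-LSKs alone by the call. It had 2.28, 3.75 and 2.63 CPM in WT-LSKs, 0.666, 1.34 and 1.37 in URE-LSKs, 11.8, 13.2 and 7.05 in WT-GMPs and 9.19, 11.03 and 6.95 in URE-GMPs. The LSK groups were apart and the GMP groups overlapped, at log2 fold changes of -1.34 (SE 0.32, adjusted p = 0.00179) and -0.23 (SE 0.27, adjusted p = 0.474). The test of the difference itself gave 1.11 (SE 0.41, adjusted p = 0.0786), and 1.11 (edgeR, adjusted p = 0.036) in the fit with the replicate block. The region rose from LSK to GMP by 1.90 (SE 0.29, adjusted p = 4.82e-05) in WT and 3.01 (SE 0.31, adjusted p = 4.14e-07) in URE on the log2 scale.

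Tlr6 had 2 promoter regions. The one with more counts (chr5:64958936-64959884) went the other way in LSKs. WT-LSKs had 11.8, 9.55 and 10.1 CPM and URE-LSKs 21.01, 16.2 and 17.4, while WT-GMPs had 12.6, 7.95 and 7.14 and URE-GMPs 9.299, 8.59 and 8.84. The LSK groups did not overlap, with a log2 fold change of 0.79 (SE 0.19, adjusted p = 0.00172) that was short of the fold limit and passed it with GC content offsets (1.02), and the GMP groups overlapped, at -0.04 (SE 0.19, adjusted p = 0.87). The smaller one, Tlr6 -5 (chr5:64959975-64960230), over the start site itself, had 4.62, 3.43 and 4.99 CPM in WT-LSKs and 6.12, 3.63 and 4.38 in URE-LSKs, with overlapping libraries and log2 fold changes of 0.11 (SE 0.27, adjusted p = 0.75) in LSKs and -0.33 (SE 0.27, adjusted p = 0.303) in GMPs. Only 1.2 kb upstream of the same gene, the region Tlr6 -1193 (chr5:64960820-64961760) was strongly reduced in URE-LSKs. There the libraries read 12.8, 11.6 and 9.13 CPM in WT-LSKs, 0.928, 0.949 and 0.983 in URE-LSKs, 36.2, 28.2 and 24.6 in WT-GMPs and 15.1, 20.7 and 9.04 in URE-GMPs. The log2 fold change was -3.54 (SE 0.28, adjusted p = 4.69e-08) in LSKs and -0.98 (SE 0.23, adjusted p = 0.00145) in GMPs by edgeR. The GMP value of -1.02 was called in the fit with the replicate block (adjusted p = 0.000127), as it was without WT-GMP replicate 2 (-1.02), WT-GMP replicate 3 (-1.09) or URE-GMP replicate 2 (-1.30). The region with the most counts in the Tlr6 window was the promoter of Fam114a1, at 35.8 ± 1.82 CPM in WT-LSKs and 41.04 ± 2.31 in URE-LSKs (SD, n = 3), which was not called.

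Tlr9, the receptor for CpG DNA, showed the largest LSK decrease of the 67 regions, at its promoter (chr9:106222181-106222748). WT-LSKs had 10.8, 14.1 and 8.06 CPM there and URE-LSKs 0.262, 0.558 and 0.107. WT-GMPs had 22.2, 19.8 and 19.7 CPM and URE-GMPs 3.27, 5.88 and 1.04. The URE libraries were below the WT libraries by a wide margin in LSKs and by a smaller one in GMPs, with log2 fold changes of -5.20 (SE 0.55, adjusted p = 8.44e-07) and -2.58 (SE 0.42, adjusted p = 7.58e-05) by edgeR. Without URE-LSK replicate 2 the LSK value was -5.89, and without URE-GMP replicate 2 the GMP value was -3.24. The promoter stretch outside untranslated exon parts is printed as that of the largest LSK decrease, with the PU.1 core and an AP-1 motif (TGANTCA) in capitals. The full PU.1 site of this region, shown above, lies just beyond its end.
Tlr9 -134, chr9:106222314-106222597, plus strand: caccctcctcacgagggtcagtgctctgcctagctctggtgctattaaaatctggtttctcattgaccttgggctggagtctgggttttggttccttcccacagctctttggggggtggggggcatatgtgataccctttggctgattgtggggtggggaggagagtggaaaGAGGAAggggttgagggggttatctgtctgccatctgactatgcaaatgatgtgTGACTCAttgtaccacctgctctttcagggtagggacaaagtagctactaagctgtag

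The adjoining region Tlr9 +607, at the start of the gene, was also lower in both cell types. It had 5.33, 6.41 and 4.102 CPM in WT-LSKs, 0.309, 0.502 and 0.363 in URE-LSKs, 13.5, 11.7 and 9.66 in WT-GMPs and 1.79, 4.09 and 0.606 in URE-GMPs. By edgeR the log2 fold change was -3.75 (SE 0.50, adjusted p = 1.04e-05) in LSKs and -2.40 (SE 0.42, adjusted p = 0.000127) in GMPs, the latter -3.26 without URE-GMP replicate 2. Beyond the 3' end of the gene, Tlr9 +7714 (chr9:106229980-106230645) was the one region of the 67 with the NF-kB letters (GGGA, any base, TTTCC), which 0.546% of all regions hold. It had 18.9, 20.6 and 21.4 CPM in WT-LSKs, 3.02, 2.85 and 3.61 in URE-LSKs, 24.6, 25.9 and 26.2 in WT-GMPs and 7.77, 8.03 and 10.01 in URE-GMPs. The spread between libraries was small, and edgeR gave log2 fold changes of -2.68 (SE 0.14, adjusted p = 2.21e-09) and -1.57 (SE 0.13, adjusted p = 1.62e-07).

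In the coding exon of Tlr9 the differences stayed under the fold limit, and a region upstream rose. Tlr9 +3855, in coding sequence, had 15.7 ± 0.881 CPM in WT-LSKs and 20.1 ± 0.855 in URE-LSKs, then 13.1 ± 1.03 in WT-GMPs and 18.03 ± 2.42 in URE-GMPs (SD, n = 3), at log2 fold changes of 0.36 and 0.46. Tlr9 -7224, in a non-coding exon part 7.2 kb upstream, had 1.71, 1.55 and 0.684 CPM in WT-LSKs and 7.02, 4.69 and 7.11 in URE-LSKs, and 2.85, 0.965 and 1.41 in WT-GMPs against 5.403, 4.75 and 5.597 in URE-GMPs. It was higher in every URE library, with log2 fold changes of 2.29 (SE 0.36, adjusted p = 4.84e-05) and 1.66 (SE 0.35, adjusted p = 0.000698) by edgeR. The region of the window with the most counts, the Twf2 promoter at -19424, had 36.1 ± 0.627 CPM in WT-LSKs, 47.1 ± 0.689 in URE-LSKs, 40.5 ± 1.33 in WT-GMPs and 56.2 ± 2.298 in URE-GMPs. It was higher in URE by the test but short of the fold limit, at 0.38 (SE 0.07, adjusted p = 0.000194) and 0.47 (SE 0.07, adjusted p = 2.69e-05). A broad region further down, Tlr9 +9955, differed between the cell types and was not called between genotypes, with 2.204, 1.47 and 2.05 CPM in WT-LSKs, 2.14, 1.56 and 2.798 in URE-LSKs, 37.1, 31.2 and 14.4 in WT-GMPs and 33.2, 28.2 and 27.1 in URE-GMPs. Its rise from LSK to GMP came to 3.82 (SE 0.31, adjusted p = 1.6e-07) in WT and 3.75 (SE 0.30, adjusted p = 3.58e-08) in URE on the log2 scale, with overlapping genotypes in each cell type.

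The 21 regions of the 67 that were not chosen for a full description, Tlr6 -5 among them, had log2 fold changes between -2.28 and 2.52 in LSKs and between -1.62 and 1.38 in GMPs. Of these, 2 were higher and 3 lower in URE-LSKs, where 13.6% of all regions were higher and 23.9% lower. In URE-GMPs 1 was higher and 4 were lower, where 15.6% of all regions were higher and 24.1% lower. In WT, 9 of the 21 were higher and 1 lower in GMPs than in LSKs, and in URE 10 were higher and 1 was lower. Of all regions, 37.8% were called for this step in WT, with 16.8% lower, and 49.1% in URE, with 21.6% lower. Whether the counts among the 21 differed from those shares was not tested. The LSK value of 2.52 (SE 0.99, edgeR, adjusted p = 0.0404) was that of Cd14 +13242, with at most 2 counts in any WT-LSK library. Taking 3 counts per library as the floor, that region was at least 1.98-fold higher in URE-LSKs.

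Whether the genotype difference itself differed between LSKs and GMPs was tested with the interaction of genotype and cell type, and 11 of the 67 regions were called, or 16.4% beside 14.0% of all regions. In 8 of them the value was positive and in 3 negative, beside 8.96% and 5.03% of all regions, and a positive value here mostly meant a stronger loss in LSKs than in GMPs. Without URE-GMP replicate 3, 14 were positive and 2 negative. The clearest was Tlr9 +20587 (chr9:106242857-106243513), in a coding exon nearest to Alas1, the enzyme that starts haem synthesis. It had 8.06, 7.098 and 9.43 CPM in WT-LSKs and 0.428, 0.614 and 0.705 in URE-LSKs, but 18.2, 17.1 and 13.1 in WT-GMPs and 14.3, 15.1 and 11.7 in URE-GMPs. The region was thus nearly closed in URE-LSKs and overlapped between genotypes in GMPs, with log2 fold changes of -3.81 (SE 0.22, adjusted p = 4.54e-09) and -0.23 (SE 0.18, adjusted p = 0.275) and a rise from LSK to GMP of 4.55 in URE against 0.97 in WT.

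Of the same kind were the Tlr9 promoter, Tlr9 +7714, Ly86 +11523, Ly86 +11000 and Tlr6 -1193, each of which was lower in both URE cell types by its fitted value but less so in GMPs. Ly86 +11000 had 3.73, 3.59 and 2.45 CPM in WT-LSKs, 0.523, 0.893 and 0.449 in URE-LSKs, 4.52, 2.98 and 2.904 in WT-GMPs and 1.81, 2.12 and 1.09 in URE-GMPs. Its LSK log2 fold change was -2.40 (SE 0.33, adjusted p = 1.32e-05) and its GMP one -1.03 (SE 0.30, adjusted p = 0.00697), and the latter call was lost without WT-GMP replicate 1 (-0.85) or URE-GMP replicate 3 (-0.80) and under other scalings, at values between -0.98 and -0.77. Tlr6 -1193 went with a steeper rise from LSK to GMP in URE, 3.97 (SE 0.28, adjusted p = 1.34e-08), than in WT, 1.41 (SE 0.23, adjusted p = 9.5e-05).

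In Cd14 +18035 and Tlr1 -1986 the sign of the fitted difference changed between the cell types. Cd14 +18035 had 8.11, 5.34 and 4.57 CPM in WT-LSKs and 1.999, 1.87 and 4.06 in URE-LSKs, and 45.8, 43.4 and 29.1 in WT-GMPs against 61.5, 70.2 and 50.8 in URE-GMPs. It was lower in URE-LSKs, at -1.16 (SE 0.28, adjusted p = 0.00221), and above WT in each URE-GMP library, at 0.63 (SE 0.24, adjusted p = 0.0301), which was short of the fold limit, and it rose from LSK to GMP by 2.71 in WT and 4.50 in URE. The LSK call was lost without WT-LSK replicate 1 (-0.94), URE-LSK replicate 1 (-0.99) or replicate 2 (-0.98) and with GC content offsets (-0.92). Tlr1 -1986, between Tlr1 and Tlr6, had 0.157, 0.286 and 0.141 CPM in WT-LSKs and no more than 3 counts in any URE-LSK library, at least 2.66-fold lower, against 1.17, 1.15 and 0.484 CPM in WT-GMPs and 1.53, 1.68 and 1.77 in URE-GMPs. Its fitted LSK value of -2.11 (SE 0.73, adjusted p = 0.0217) was -2.78 without URE-LSK replicate 1, was not called without WT-LSK replicate 2 (-1.88), URE-LSK replicate 2 (-1.64) or URE-LSK replicate 3 (-2.17), and came to -0.75 with offsets fitted to abundance, where the GMP value of 0.84 became 2.63.

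The other 3 regions had negative values, with URE-GMPs lower and URE-LSKs at or above WT. Ly86 -7689 had 3.25, 4.45 and 2.75 CPM in WT-LSKs, 4.66, 3.91 and 4.21 in URE-LSKs, 4.43, 4.34 and 3.34 in WT-GMPs and 1.03, 1.65 and 0.872 in URE-GMPs, and only the GMP groups were apart, at -1.75 (SE 0.25, adjusted p = 2.56e-05). Ly86 -6165 had 1.26, 0.408 and 0.925 CPM in WT-LSKs, 1.95, 1.59 and 1.92 in URE-LSKs, 0.669, 0.567 and 0.761 in WT-GMPs and 0.301, 0.5898 and 0.267 in URE-GMPs. It was called higher in URE-LSKs at 1.04 (SE 0.36, adjusted p = 0.0229), a call that was lost without any 1 of 7 libraries, at log2 fold changes between 0.69 and 1.01, and with library size scaling (0.92), whereas offsets fitted to abundance gave 2.28. It was not called in GMPs, at -0.75 (SE 0.41, adjusted p = 0.123), except without URE-GMP replicate 2 (-1.21, edgeR, adjusted p = 0.0316). Tlr1 +14527 had 1.92, 1.47 and 1.89 CPM in WT-LSKs, 2.36, 1.81 and 1.86 in URE-LSKs, 0.586, 0.944 and 0.691 in WT-GMPs and 0.237, 0.121 and 0.145 in URE-GMPs. The LSK libraries overlapped and the GMP libraries did not, at log2 fold changes of 0.18 and -2.16 (SE 0.35, adjusted p = 7.66e-05), and the region fell from LSK to GMP in both genotypes, with log2 fold changes of -1.23 in WT and -3.57 in URE. With offsets fitted to abundance its LSK value was 1.37 and its GMP value -1.17.

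**Figure D4:**
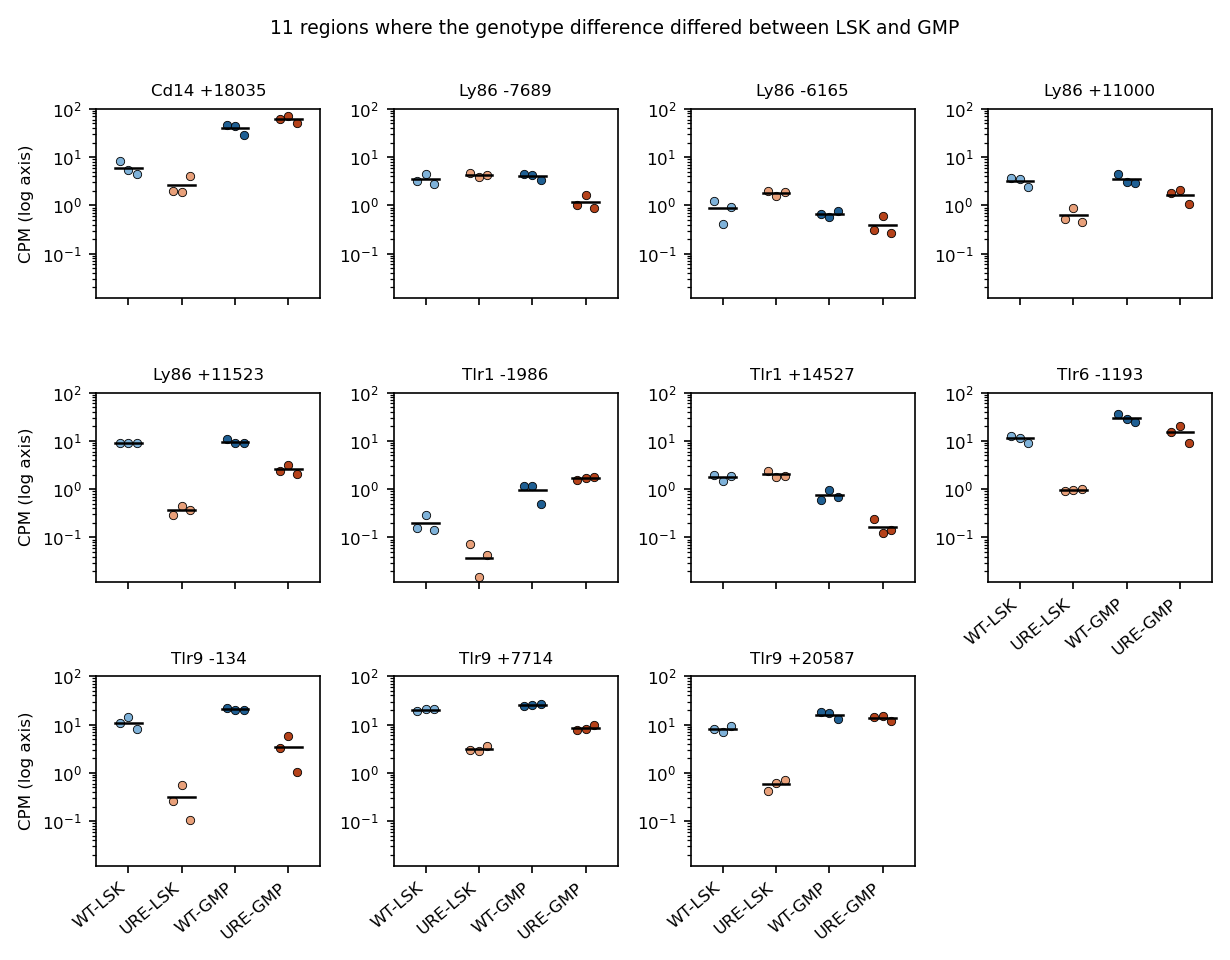
CPM of the 11 regions whose genotype difference differed between LSKs and GMPs, in the 12 libraries, on a log axis, with group means as lines; the URE-LSK library without a count at Tlr1 -1986 is drawn at the lower edge. In Tlr9 +20587 and Tlr6 -1193 the URE-LSK libraries stand alone below the other groups, and in Ly86 -7689 and Tlr1 +14527 the URE-GMP libraries do.

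Between the cell types, the loci opened on the way from LSK to GMP in both genotypes. In WT, 28 of the 67 regions were higher and 4 lower in GMPs than in LSKs, so that 47.8% were called against 37.8% of all regions, and 5.97% were lower against 16.8%. In URE, 34 were higher and 8 lower, with 62.7% called against 49.1%, 50.7% higher against 27.6%, and 11.9% lower against 21.6%. The steps in WT and URE use separate libraries, and region by region their difference is the interaction tested above. The median log2 change from LSK to GMP was 0.61 in WT and 1.14 in URE over the 67 regions and -0.01 and 0.03 over all regions. When regions with a mean under 2 CPM were left out, 18 of 50 remaining regions were called in WT and 27 in URE. The medians of those 50 regions were smaller, 0.33 in WT and 0.39 in URE, beside -0.01 and -0.04 over all regions kept. Of their calls, 88.9% in WT and 85.2% in URE were higher, beside 55.4% and 53.9% over all regions kept.

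Among other letters searched on both strands, the PU.1 core GAGGAA was found in 46.3% of the 67 regions and 46.9% of all, the composite of a PU.1 and an IRF site (GGAA, any 2 bases, GAAA) in 5.97% and 5.70%, and the RUNX letters in 16.4% and 17.3%. The C/EBP letters were found in 28.4% against 20.5%, and the AP-1 letters in 25.4% against 15.1%. Of the 19 regions with the C/EBP letters, 6 were lower in URE-LSKs, or 31.6% beside 43.8% of the 48 regions without them and 20.7% of all regions with them. In URE-GMPs 2 were lower, or 10.5% beside 52.1% and 17.9%. All 4 regions with the composite letters were lower in URE-GMPs and 3 in URE-LSKs, where 42.5% and 36.3% of all such regions were lower. Ly86 +11000 is among these 4, and its GMP call was lost in several settings, as given above. Of the 11 regions with the RUNX letters, 54.5% were lower in URE-LSKs and 45.5% in URE-GMPs, beside 19.1% and 20.3% of all such regions. For the 17 with the AP-1 letters the shares were 47.1% and 41.2%, beside 19.7% and 21.6%. The core is part of the full PU.1 site and can overlap the composite. These are shares of regions of unequal length and describe the letters only.

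In the rest of the pathway, the called promoters were mostly those of other Toll-like receptors. The 34 other genes taken comprised 7 further Toll-like receptors, 3 chaperone and transport genes, Lbp, 5 adaptors, 9 kinases and ligases, 5 transcription factors and 4 inhibitors, and each had a promoter region. Of those promoters, 4 were lower in URE-LSKs and 5 in URE-GMPs, and all but 1 in each cell type belonged to Toll-like receptors, with 3 of 7 lower in LSKs and 4 of 7 in GMPs. Among all promoter regions 7.68% were lower in LSKs and 8.25% in GMPs, and the share called of the 35 promoter regions of these genes, 11.4% and 14.3%, was close to the 11.5% and 13.0% of all promoter regions.

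Tlr11, a sensor of microbial profilin, had the lowest log2 fold changes of these promoters. Its promoter had 1.08 ± 0.09399 CPM in WT-LSKs, 0.0895 ± 0.0204 in URE-LSKs, 2.89 ± 0.472 in WT-GMPs and 0.147 ± 0.0381 in URE-GMPs (SD, n = 3), and edgeR gave log2 fold changes of -3.56 (SE 0.37, adjusted p = 6.78e-07) and -4.23 (SE 0.32, adjusted p = 6.3e-08). The URE-LSK libraries of Tlr11, at 0.0714, 0.112 and 0.0854 CPM, lay near the counting limit. The promoter of Tlr5, the flagellin receptor, was lower in both cell types, with log2 fold changes of -1.63 (SE 0.30, adjusted p = 0.00025) and -1.27 (SE 0.28, adjusted p = 0.000947). That of Tlr13, which senses bacterial ribosomal RNA, was lower in LSKs, from 2.22 ± 0.395 to 0.305 ± 0.261 CPM, and in GMPs it had 3.94 ± 1.01 in WT and 3.45 ± 0.7302 in URE. The URE-LSK libraries of Tlr13, at 0.0714, 0.586 and 0.256 CPM, were spread widely, the lowest near the counting limit. Its genotype difference in GMPs minus that in LSKs was 2.72 (SE 0.54, adjusted p = 0.00309) by edgeR. In GMPs Tlr8 was lower at -1.85 (SE 0.43, adjusted p = 0.0015) and Tlr12 at -1.29 (SE 0.22, adjusted p = 0.000128).

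Outside the receptors, the transcription factor gene Irf5, which acts downstream of Myd88, was the only one of 27 promoters that was called lower, from 23.1 ± 0.838 to 6.48 ± 1.64 CPM in LSKs and from 29.4 ± 1.55 to 13.2 ± 3.67 CPM in GMPs (SD, n = 3), at log2 fold changes of -1.84 (SE 0.19, adjusted p = 6.58e-07) and -1.15 (SE 0.18, adjusted p = 5.47e-05). The log2 fold changes of the other 26 lay between -0.59 and 0.71.

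**Figure D5:**
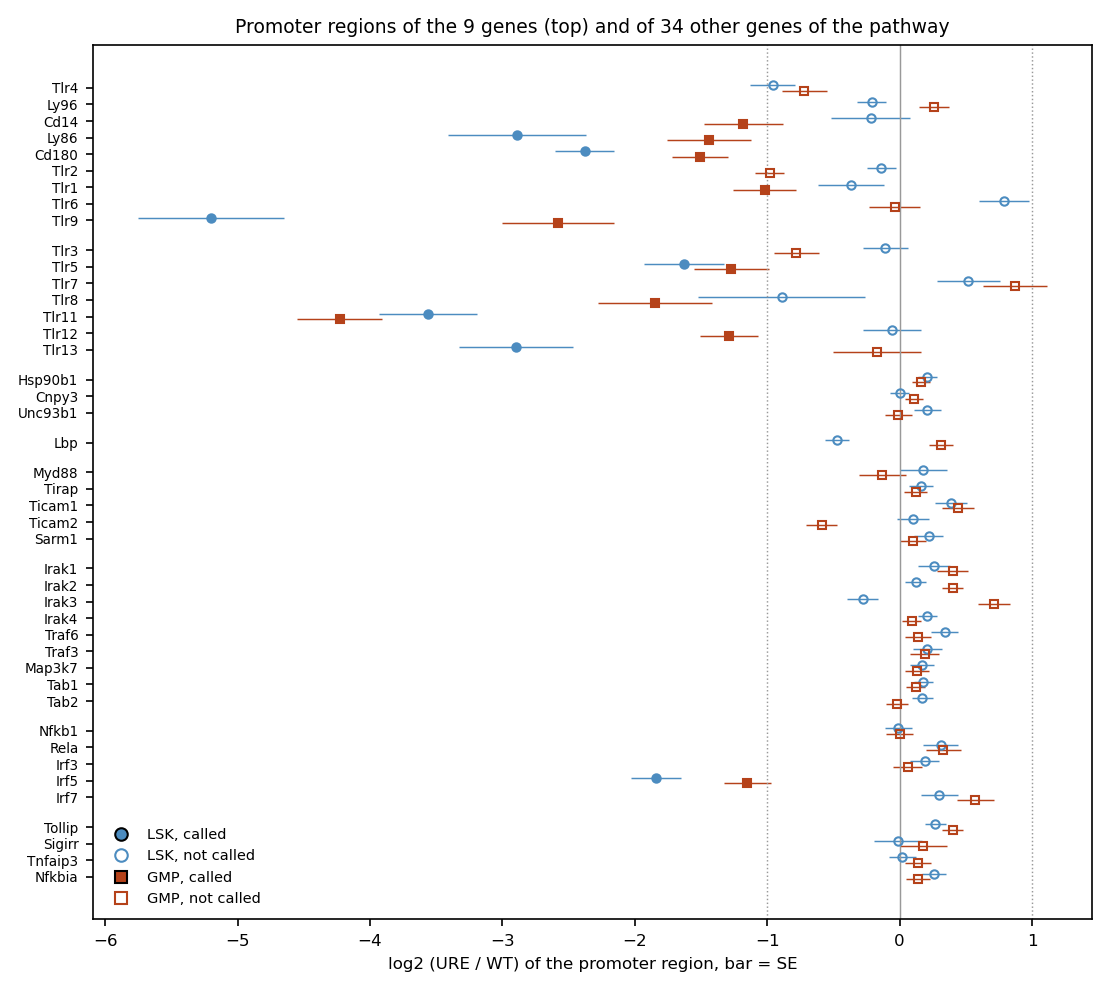
Log2 fold change of URE over WT at the promoter region of the 9 genes (top block) and of 34 other genes of the pathway in functional blocks, with standard errors as bars, circles for LSKs, squares for GMPs, and filled symbols where called. Receptor promoters spread from -5.20 to 0.87, whereas adaptor and kinase promoters lay between -0.59 and 0.71.

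Promoters elsewhere in the genome with the most similar profile over the 12 libraries were found by Pearson's r of log2 CPM among 14184 protein-coding genes, as a description that shares library, depth and genotype between its points. For Tlr9 these were Clec4a1 (r = 0.992), Irf5 (0.991) and Nfam1 (0.986). For Cd180 they were Capg (0.991), Cd86 (0.987) and Nectin4 (0.984), and for Ly86 6030452D12Rik (0.994), Ctsz (0.991) and Lrrc2 (0.983). Those of Tlr2 were Dock1, Abcb1b and Klk8 (r between 0.964 and 0.970), and those of Tlr4 were Tnni2 (0.973) and Gm29094 and Bcl2a1b, which share 1 region (0.965). The profiles of Cd14, Ly96, Tlr1 and Tlr6 were matched at r between 0.926 and 0.970.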

How the data were processed

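ATAC-seq counts of 12 libraries were analysed, 3 for each of 4 groups of LSKs or GMPs from WT or URE mice, grouped by the labels. The authors prepared OmniATAC libraries amplified with KAPA HiFi polymerase, trimmed reads with cutadapt, aligned them to GRCm38 with Bowtie2, removed duplicates and reads outside the primary chromosomes, called peaks with Genrich for each group with its replicates pooled, merged the peaks with bedtools and counted reads in them with featureCounts, and they deposited raw counts for 121336 regions. Versions of the trimmer, aligner and counter, and whether fragments or read ends were counted, are not given in the sources used here. Because regions were called in the groups themselves, a region open in 1 group is part of the table. Region starts were taken as counted from 0 and are printed counted from 1.

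The totals per library lay between 23072701 and 62204826 counts, so that 1 count was worth less than 0.05 CPM. A fold against a group at or under 3 counts per library was computed against that floor, and such bounds cover counting error only. CPM values were taken after TMM scaling. The counts were tested in R 4.3.3 with edgeR 4.0.16 (glmQLFit and glmQLFTest, two-sided), with 1 coefficient per group over all 12 libraries and Benjamini-Hochberg adjustment over all regions. The fold limit, an absolute log2 fold change over 1, and the adjusted p limit of 0.05 were those of the study's methods. The edgeR filter on low counts removed 0 regions, and the common biological coefficient of variation was 0.185. Fits were tested on simulated data first. Gene bodies and start sites came from GENCODE M21 basic, and regions within 500 bp of a start site were taken as promoters. The profiles of promoters were correlated on log2(CPM + 0.5).

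The members and lists were chosen with earlier results of these data known. The regions described singly are, for each gene, the promoter region, the region with the most counts, the one with the smallest p in each genotype comparison, and any whose genotype difference differed between the cell types. A further 17 regions were singled out after their values were seen: Tlr4 +24614, Ly86 -14041, -12354, +2978, +10612, +54339 and +58678, Cd180 -14722, -5324, +1926, +5265 and +23613, Tlr2 -3218, and Tlr9 -7224, +607, +3855 and +9955. Tlr6 -5, the second promoter region of its gene, was also named after its values were seen. P-values set the differences against the spread between these libraries, estimated over all groups. The main fit held no block for the replicate number.

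Replicate numbers are shared by the 4 groups. Libraries with the same number deviated together, with correlations of their deviations from the group means of 0.117, 0.236 and 0.422 between WT-GMP and URE-GMP, 0.223, 0.257 and 0.264 between WT-LSK and WT-GMP, and 0.112, 0.319 and 0.172 between URE-LSK and URE-GMP. Between WT-LSK and URE-LSK they were 0.150, 0.0627 and -0.109. The highest correlation with another number was 0.180, -0.0436, 0.0980 and 0.138 in the same order, the first of which exceeds the 0.117 of its matched pair. By a limit of 0.1 for every matched pair, the numbers pair the libraries in all these comparisons but the last. Alternatives were RLE, library size, promoter TMM, loess and GC content scaling (limma 3.58.1 and edgeR), DESeq2 1.42.0, glmTreat, other thresholds and filters, windows of other sizes, fits to just the 2 groups at hand, a replicate block, and leaving out each library.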

Additional observations from a re-analysis of the deposited data

Results flagged for a closer look

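In 11 of the 67 regions the genotype difference was not the same in LSKs and GMPs by the interaction test of edgeR, given here as the GMP minus the LSK log2 fold change of URE over WT. No explanation of these differences was tested.

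At Tlr9 the value was 3.58 (SE 0.28, adjusted p = 4.55e-06) for Tlr9 +20587 and 1.11 (SE 0.19, adjusted p = 0.00106) for Tlr9 +7714, the latter 0.99 without URE-GMP replicate 3. For the Tlr9 promoter, Tlr9 -134, it was 2.63 (SE 0.69, adjusted p = 0.0165), with 3.32 without URE-LSK replicate 2 and 1.97 without URE-GMP replicate 2, and it was not called without URE-LSK replicate 3 (2.18, edgeR, adjusted p = 0.0517). Upstream of Tlr6, Tlr6 -1193 had 2.56 (SE 0.36, adjusted p = 0.000244). Between Tlr1 and Tlr6, Tlr1 -1986 had 2.96 (SE 0.82, adjusted p = 0.0217), which was 3.63 without URE-LSK replicate 1 and not called without WT-LSK replicate 2 (2.72, adjusted p = 0.0545), and beyond the 3' end of Tlr1, Tlr1 +14527 had -2.35 (SE 0.45, adjusted p = 0.00225).

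Inside Ly86, Ly86 +11523 had 2.74 (SE 0.30, adjusted p = 4.03e-05). Ly86 +11000 had 1.37 (SE 0.44, adjusted p = 0.0432) and was not called without any 1 of 8 libraries (WT-LSK replicates 1 and 2, URE-LSK replicates 1 and 3, WT-GMP replicates 2 and 3, URE-GMP replicates 1 and 2), at values between 1.16 and 1.35. Upstream of the gene, Ly86 -7689 had -2.05 (SE 0.35, adjusted p = 0.00105). Ly86 -6165 had -1.78 (SE 0.54, adjusted p = 0.0345) and was likewise not called without any 1 of 8 libraries (WT-LSK replicates 2 and 3, and replicates 1 and 3 of the other 3 groups), at values between -1.78 and -1.45. Beyond the 3' end of Cd14, Cd14 +18035 had 1.79 (SE 0.37, adjusted p = 0.00365).

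Other regions crossed the same limits only when 1 library was left out. Without URE-GMP replicate 3 these were the Ly86 promoter (1.77, edgeR, adjusted p = 0.0233), Cd180 +1926 (1.55, adjusted p = 0.0151), Cd180 -3659 (1.17, adjusted p = 0.0323) and Tlr9 +607 (1.78, adjusted p = 0.0121). Ly86 -14041 was called without URE-GMP replicate 2 (-3.43, edgeR, adjusted p = 0.0106), the Cd14 promoter without WT-GMP replicate 3 (-1.12, adjusted p = 0.0478), and the Cd180 promoter without URE-LSK replicate 2 (1.05) or URE-GMP replicate 3 (1.04).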

How the results depend on the processing

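The 5 counts of called regions were 33 for LSK, 31 for GMP, 11 for the difference between them, and 32 and 42 for the step from LSK to GMP in WT and in URE. They stayed within 1.5 times of these under the other scalings, DESeq2 and the fits of only the groups compared. Gene bodies without flanks gave 16, 19, 3, 11 and 16, flanks of 5 kb gave 6, 19 and 26 for the last 3, and flanks of 50 kb gave 57, 53, 21, 56 and 73, by construction, since the windows held other numbers of regions. The difference between the cell types had 5 calls with glmTreat and 7 at an adjusted p under 0.01, and a minimum mean of 2 CPM left 18 and 27 calls for the steps. With 1 library left out, the counts ranged from 28 to 33, 29 to 33, 8 to 16, 29 to 32 and 37 to 42. With the replicate number as a block they were 33, 32, 13, 31 and 42, and among the genotype values of the regions described singly the block changed the calls of Tlr6 -1193 in GMPs and, for the difference, of Tlr2 +2145 and Tlr1 +10453, and no other.

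None of the values that changed sign had an adjusted p under 0.05 before. In LSKs these were Ly96 +520 (0.010) and Ly86 +89133 (0.16) with GC content offsets, with or without the block, Cd14 -8359 with library size (-0.015), promoter TMM (-0.070) and loess (-0.13), and Tlr6 -9646 with loess (-0.022). In GMPs they were Ly86 -6165 with loess (0.26), Tlr6 +687 with RLE and DESeq2 (0.023) and GC content offsets (0.16, or 0.19 with the block), Cd180 -14722 with GC content offsets (0.035, or 0.059 with the block), and Tlr9 +9955 with library size (-0.011) and promoter TMM (-0.040). The cause was not tested.

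With 1 library left out, signs also changed in GMPs at Tlr6 +687 (-0.17 to 0.20), Cd180 -14722 (-0.40 to 0.10) and Tlr9 +9955 (-0.19 to 0.34), in LSKs at Tlr4 +24614 (-0.083 to 0.60) and Tlr9 +9955 (-0.060 to 0.35), and for the difference between the cell types at Tlr4 +15869 (-0.90 to 0.32), Cd14 -1040 (-0.43 to 0.33), Tlr4 +24614 (-0.34 to 0.34), Ly86 -12354 (-1.38 to 0.070), Ly86 +2978 (-0.062 to 0.40), Ly86 +10612 (-0.24 to 1.24), Ly86 +54339 (-0.40 to 0.80), Ly86 +58678 (-0.69 to 0.31), Cd180 +5265 (-0.15 to 0.12), Cd180 +23613 (-0.25 to 0.47), Tlr2 -3218 (-0.42 to 0.26) and Tlr9 +9955 (-0.31 to 0.22). Of 3097 genotype and difference values recomputed for 46 regions, 2889 kept their direction and their side of the adjusted p limit, whatever the fold limit. The scaling moved the median log2 fold change of all regions between -0.04 (promoter TMM) and 0.18 (RLE) in LSKs and between -0.10 (promoter TMM) and 0.13 (loess) in GMPs. Loess offsets raised the share of calls over all regions that were higher from 36.2% to 53.9% in LSKs and from 39.4% to 56.2% in GMPs. Depth limited the weakest regions, Tlr1 -1986 and Ly86 -12354, to a few counts in URE-LSKs. Cd14 +13242 had at most 2 and Tlr1 +25151 at most 3 counts in any WT-LSK library.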

Other observations

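Around the 34 other genes of the pathway, 321 regions were found, promoters included. In LSKs 84 of them were lower and 23 higher in URE, or 26.2% and 7.17% beside 23.9% and 13.6% of all regions. In GMPs 75 were lower and 38 higher, or 23.4% and 11.8% beside 24.1% and 15.6%. Of the 44 regions around the 7 other Toll-like receptors, 15 were lower and 1 higher in LSKs and 19 lower and 1 higher in GMPs. Around the chaperone and transport genes 8 of 22 regions were lower in LSKs and 2 in GMPs, around the transcription factors 19 of 65 in each cell type, around the kinases and ligases 30 and 22 of 108, and around the adaptors 8 and 11 of 49. Around the 4 inhibitors, of 24 regions 3 were lower in LSKs, and 1 was lower and 4 were higher in GMPs. Sigirr, a receptor that dampens signalling, the factor gene Irf3, the chaperone gene Hsp90b1 and the ligase gene Traf6 had no called region in either cell type. They had few regions, 6, 7, 2 and 3 in that order. Of all regions 37.5% were called in LSKs and 39.7% in GMPs, and of all promoter regions 11.5% and 13.0%.

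The genes named here were chosen after their values were seen. Several genes whose promoters were not called had called regions elsewhere. Over all regions, 23.9% were lower and 13.6% higher in URE-LSKs, and 24.1% and 15.6% in URE-GMPs. Whether the counts of a gene differed from those shares was not tested. Unc93b1, which carries endosomal receptors such as Tlr9 to their compartment, had 15 regions, of which 7 were lower in URE-LSKs, while 2 were lower and 3 higher in URE-GMPs. Nfkb1, which encodes a subunit of NF-kB, had 36 regions, with 12 lower and 6 higher in LSKs and 13 lower and 6 higher in GMPs. Around the kinase gene Irak2, 9 of 27 regions were lower and 4 higher in LSKs, and 4 were lower and 3 higher in GMPs. Traf3, which encodes a ubiquitin ligase of the pathway, had more gains than losses, with 3 of 23 regions lower and 4 higher in LSKs and 1 lower and 8 higher in GMPs. The difference between the cell types was called in 44 of the 321 regions, 33 positive and 11 negative, or 13.7% beside 14.0% of all regions.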
